A study of Mus musculus with 4 samples.

Results

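The 7 genes described here handle arginine and the polyamines made from it: the arginine transporter gene Slc7a2, the inducible nitric oxide synthase gene Nos2, the citrulline recycling genes Ass1 and Asl, and the polyamine synthesis genes Odc1, Srm and Sms. They were chosen by name, for the part of arginine use in suppression by MDSCs (myeloid-derived suppressor cells), from the 53465 genes in the count table, and all 7 had enough reads to be among the 14682 genes tested. MDSCs were sorted with beads against Gr-1 from spleens of BALB/c mice that carried tumors of 4T1, a mammary carcinoma line, then kept in culture for 6 h, either in medium alone (control replicates 1 and 2) or with 5 μg/mL of EGCG, the main catechin of green tea (EGCG replicates 1 and 2). No engineered allele is named for either group, the study's methods give the mice as male and 6 weeks old when injected, and the labels put sacrifice on day 21, later than the sorting methods do. Nothing in the sources used here says whether libraries within a group represent different mice or wells, so p values speak of libraries and not of mice.

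Arginine enters myeloid cells through cationic amino acid transporters and is then turned into urea and ornithine or oxidised by nitric oxide synthase to nitric oxide and citrulline. MDSCs are known for depleting arginine around T cells, which need it to proliferate. Ornithine decarboxylase commits ornithine to putrescine, from which spermidine and spermine are built.

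The libraries held 17767318 to 18390385 counts on genes, of which the 7 genes took 0.0116% to 0.0139%. The defining markers of the sorted cells were present: the summed level of 11 granulocyte markers was 62140 to 82600 CPM (reads of a gene relative to all reads of its library, after scaling by the TMM method) and that of 8 monocyte markers 1686 to 2025 CPM. With 2 libraries against 2, an exact permutation test cannot give a two-sided p below 0.333, so genes were tested in 1 edgeR quasi-likelihood model of all genes, and p values were adjusted after Benjamini and Hochberg, with a threshold of 0.05.

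EGCG was compared with control for each of the 7 genes. None passed the threshold: 0 of 7 had an adjusted p under 0.05 by edgeR, against 0.15% of all tested genes (0.136% lower and 0.0136% higher with EGCG). At an unadjusted p under 0.05, 2 of the 7 were lower with EGCG (Slc7a2 and Ass1) and 0 were higher, against 7.02% and 5.22% of all tested genes. These counts changed when control replicate 1 or EGCG replicate 1 was left out. By DESeq2, 0 of the 7 passed after adjustment, and 1 was lower at an unadjusted p under 0.05 (0.341% lower and 0.0954% higher after adjustment, and 3.69% lower without, of all tested genes). DESeq2 gave no adjusted p for Nos2, Ass1, Srm and Sms, so these could not pass. Genes without an adjusted p count as not called in these shares. The EGCG libraries lay wholly below the control libraries for the same 2 genes (21.2% of all tested genes) and wholly above them for Odc1 and Asl (21.5% of all tested genes). The median log2 fold change of the 7 genes was -0.02, beside 0.0031 for all tested genes. Thus the largest difference was that of the arginine transporter.

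**Figure D1:**
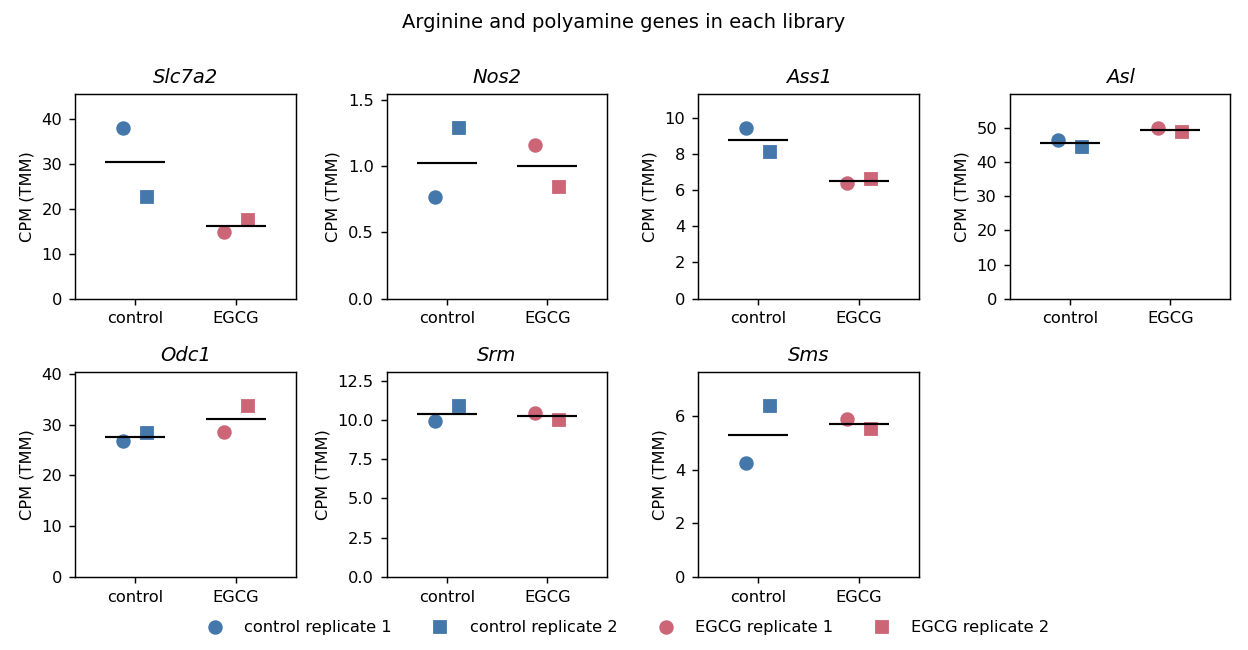
TMM-scaled CPM (y axis, from 0) of the 7 genes in control and EGCG libraries (x axis), with circles for replicate 1, squares for replicate 2 and a line at each group's mean. For Slc7a2 and Ass1 both EGCG libraries lie below both control libraries, and control replicate 1 stands highest, at 38.0 and 9.42 CPM.

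Slc7a2 (ENSMUSG00000031596; GRCm38 chromosome 8, 40862396 to 40922308, plus strand) encodes the cationic amino acid transporter CAT2, which brings arginine into activated myeloid cells. Control replicates 1 and 2 held 38.0 and 22.7 CPM of it, against 14.9 and 17.5 CPM with EGCG, from 270 to 694 counts. The EGCG libraries were thus the lowest and close to each other, while the control libraries differed 1.67-fold. Its log2 fold change was -0.91 (standard error 0.18, 95% interval -1.30 to -0.51) and the adjusted p by edgeR was 0.0717. This was 46.7% lower with EGCG, and its unadjusted p by edgeR (0.000217) ranked 42 among all tested genes. That p depended on how the spread was modelled: it was 0.0189 in edgeR's robust fit and 0.0188 by DESeq2. Without control replicate 1 the log2 fold change was -0.48. A part of its exons (635 of 9135 bases) overlaps Gm26584 on the opposite strand, and the counting did not use strand.

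The call of Slc7a2 turned on the scaling and the libraries, whereas its direction was lower in all 15 alternatives tried, with or without a library. When libraries were scaled by their totals alone (library size only), the adjusted p by edgeR was 0.00755, which passed, as 0.919% of all tested genes did in the lower direction. Over the 11 alternatives that kept all libraries, the adjusted p ran from 0.00755 to 0.650. Without control replicate 1, Slc7a2 missed the threshold by edgeR (adjusted p of 0.0947). When control replicate 2 was left out the log2 fold change was -1.23, which passed. It also passed without EGCG replicate 1 (-0.79) and without EGCG replicate 2 (-1.03). Passing was also more common over all genes in these fits: the share called lower was 2.33%, 0.497% and 1.09% in that order, and 0.722% without control replicate 1, beside 0.136% with all libraries. A lone library was assumed in these fits to vary as the other group did. In bulk RNA, fewer cells of a type and less Slc7a2 RNA per cell cannot be told apart.

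**Figure D2:**
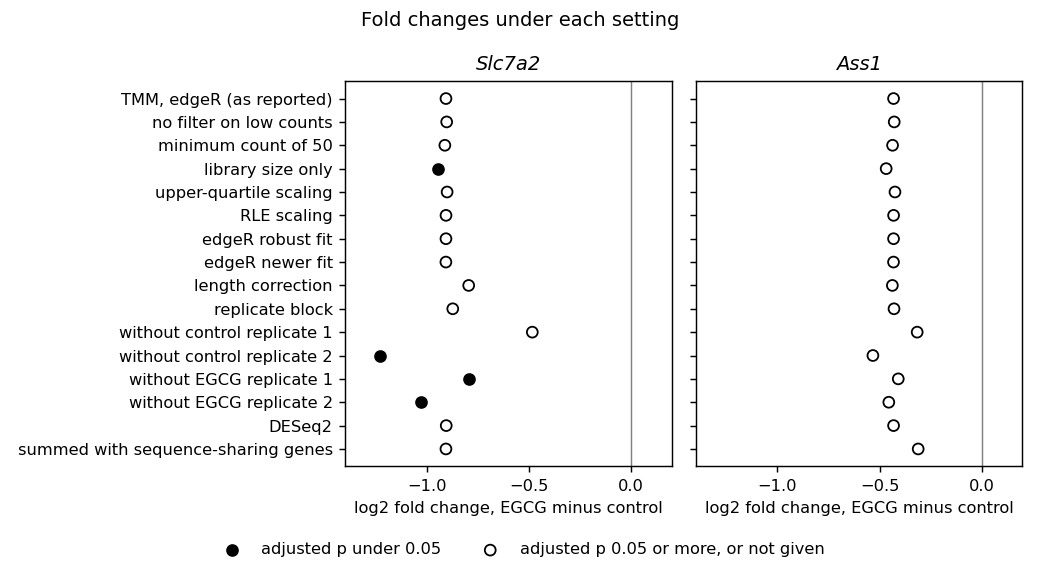
Log2 fold change, EGCG minus control (x axis), of Slc7a2 and Ass1 under each setting (y axis), filled where the adjusted p is under 0.05. All values lie below 0; leaving out control replicate 1 moves Slc7a2 to -0.48, its value nearest 0.

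Markers of several cell types, those of the sorted cells included, were read in the same libraries, and 0 of them passed after adjustment by edgeR. Of 9 macrophage markers, 9 had lower values with EGCG (4 at an unadjusted p under 0.05, beside 7.02% of all tested genes), with a summed level of 653.9 to 672.2 CPM in the control libraries and 532.4 to 606.1 CPM in the EGCG libraries. Of 8 monocyte markers, 6 had lower values (2 at an unadjusted p under 0.05, summed level 1839 to 2025 CPM in control and 1686 to 1801 CPM in EGCG libraries), and so had all 5 tested of 6 endothelial markers (3 at an unadjusted p under 0.05, 119.5 to 130.6 CPM and 97.5 to 103.2 CPM). None of the markers in these 3 lists was at 0 in all libraries. The log2 ratio of the mean sums, EGCG to control, was -0.22 for the macrophage, -0.15 for the monocyte and -0.32 for the endothelial markers. These sums rest mostly on a few abundant genes, and the median log2 fold changes of single markers were -0.27, -0.12 and -0.50. The library order of Slc7a2, with control replicate 1 highest and EGCG replicate 1 lowest, was looked for after its values were seen. It was shared by 7 of the 9 macrophage, 5 of the 8 monocyte, 2 of the 5 tested endothelial and 0 of the 11 granulocyte markers, beside 11.3% of all tested genes. Among them, Fn1, a monocyte marker here, was at 490.3 and 303.6 CPM in control and 217.8 and 263.0 CPM in EGCG libraries (log2 fold change -0.72). Mrc1, a macrophage marker, was at 30.0 and 22.8 CPM in control and 15.8 and 18.4 CPM in EGCG libraries (-0.63). The endothelial marker Cdh5 was at 6.90 and 6.38 CPM in control and 3.25 and 4.03 CPM with EGCG (-0.87). The monocyte markers Ly6c2 and Cd14 had higher values with EGCG (log2 fold changes 0.12 and 0.09) and were lowest in control replicate 1, and Ccr2 was at -0.0021. The endothelial marker Kdr did not have this order either, since it was highest in control replicate 2 (6.08 and 7.28 CPM in control, 3.03 and 4.93 CPM with EGCG; -0.75).

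The remaining lists went in either direction. Of the 11 granulocyte markers 8 had higher values (median log2 fold change 0.13), and their sum was 62140 and 73640 CPM without EGCG and 82600 and 73390 CPM with it. At an unadjusted p under 0.05, 1 of them was higher (S100a8, 0.38), beside 5.22% of all tested genes. Eosinophil and basophil markers summed to 1139 and 1011 CPM in control and 980 and 843.1 CPM in EGCG libraries (5 of 6 with lower values). In that list 2 markers were lower at an unadjusted p under 0.05 (Epx, -0.31, and Prg2, -0.26) and 1 was higher (Fcer1a, 0.37). Values were higher for 3 of 4 B cell markers (median 0.13, sums 303.0 to 321.2 CPM in control and 315.1 to 349.5 CPM in EGCG libraries), and 1 of these (Ms4a1) was higher at an unadjusted p under 0.05. The same held for 4 of 5 T cell markers (median 0.14, 85.8 to 98.4 CPM and 99.4 to 102.9 CPM; 0 at that p) and for 3 of the 4 tested erythroid markers (median 0.17, 141.9 to 179.9 CPM and 171.8 to 190.8 CPM; 1, Hbb-bs). Both tested markers of 4T1 epithelial cells had higher values, and the list of 4 summed to 3.86 to 4.66 CPM in control and 6.51 to 6.61 CPM in EGCG libraries (Epcam at 0.63 with an unadjusted p of 0.00788 by edgeR), and Krt14 was at 0 in all libraries. The 1 tested NK cell marker, Klrd1, was at -0.22. The part of any of these cell types in the values of Slc7a2 and Ass1 was not tested.

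**Figure D3:**
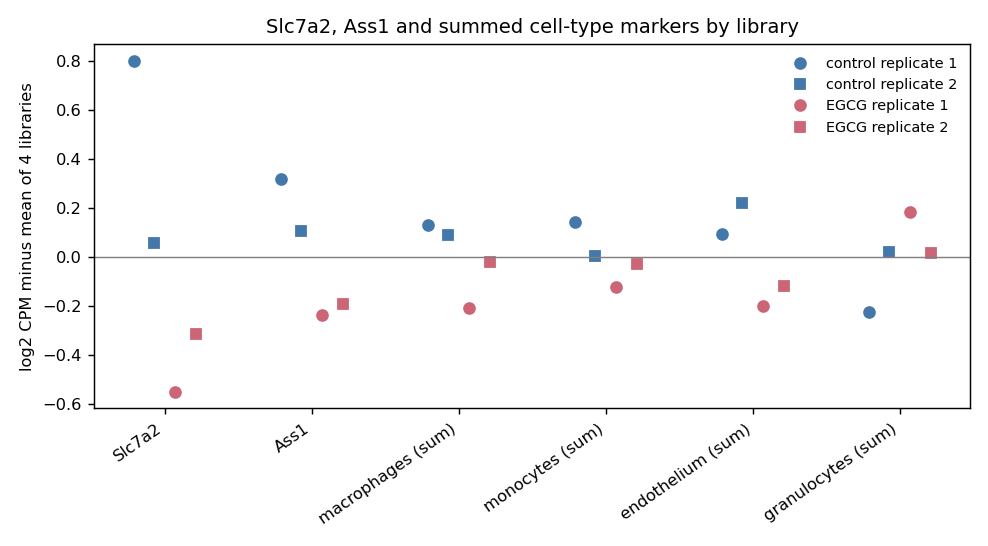
Log2 CPM minus the mean of the 4 libraries (y axis) for Slc7a2, Ass1 and the summed markers of 4 cell types (x axis), 1 point per library. Control replicate 1 stands 0.80 above the mean for Slc7a2, 0.32 for Ass1, 0.13 for the macrophage sum and 0.14 for the monocyte sum. For the endothelial sum it stands at 0.094, under control replicate 2 (0.22), and for the granulocyte sum it is lowest, at -0.22; single markers such as Fn1 spread more than these sums.

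Nos2 (ENSMUSG00000020826; chromosome 11, 78920787 to 78960254, plus strand), the gene of inducible nitric oxide synthase, had the fewest reads of the 7 genes, and its groups overlapped. It had 14 and 23 counts without EGCG and 21 and 15 with it, and the exact Poisson 95% intervals, which cover counting error only, overlapped (7.65 to 23.5 for the lowest count, 14.6 to 34.5 for the highest). The log2 fold change was -0.04 with a 95% interval from -0.92 to 0.85, so a difference inside these bounds was not resolved. This last interval reflects the spread between libraries as well as counting error, and the part of depth was not tested.

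Ass1 and Asl encode argininosuccinate synthase and lyase, which rebuild arginine from the citrulline that nitric oxide synthase releases. Ass1 (ENSMUSG00000076441; chromosome 2, 31470207 to 31520672, plus strand) was at 9.42 and 8.11 CPM in control replicates 1 and 2, against 6.40 and 6.61 CPM with EGCG. Both EGCG libraries were below both controls, with little spread inside the EGCG group. Its log2 fold change was -0.43 (standard error 0.16, 95% interval -0.78 to -0.08, adjusted p of 0.321 by edgeR), or 25.8% lower. Without control replicate 1 it was -0.32, with an unadjusted p of 0.163 by edgeR. Asl (ENSMUSG00000025533; chromosome 5, 130011258 to 130029247, minus strand) was at 46.5 and 44.5 CPM without EGCG and at 49.9 and 48.8 CPM with it. The groups of Asl were separate as well, in the other direction, at 0.12 on the log2 scale (standard error 0.09, adjusted p of 0.630 by edgeR). The log2 ratio of Ass1 over Asl was -2.29 and -2.44 in control and -2.94 and -2.86 in EGCG libraries, a difference of -0.54 against a pooled SD of 0.084 (exact permutation p of 0.333, the smallest possible).

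Among the 7 genes, Ass1, Odc1 and Sms matched an entry in RefSeq's table of promoters (GRCm38.p6), and that of Ass1 is shown because it alone of the 3 had lower values in both EGCG libraries. The window runs from 250 bases before the start site to 50 bases after it, at chr2:31470020-31470319 on the plus strand. Capitals mark matches to 3 of the 5 motifs searched on both strands, namely CACGTG (E-box), GGGCGG (GC box) and TATAA, of which the last matched on both strands in overlapping positions.
Ass1 promoter: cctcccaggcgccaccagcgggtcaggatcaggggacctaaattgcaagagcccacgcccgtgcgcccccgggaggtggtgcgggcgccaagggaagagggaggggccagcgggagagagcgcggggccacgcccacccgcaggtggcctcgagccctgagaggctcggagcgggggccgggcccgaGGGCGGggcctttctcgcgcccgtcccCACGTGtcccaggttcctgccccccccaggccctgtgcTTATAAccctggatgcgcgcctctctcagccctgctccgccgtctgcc
The E-box begins 36 and the GC box 63 bases before the start site, while the TATAA matches begin 3 and 4 bases after it. The sequence is 74.0% G and C with 27 CG pairs. Of 32851 promoters of this length, 7.15% hold CACGTG, 35.7% GGGCGG and 24.9% TATAA. The other motifs searched, TTGCNNAA (10.8% of promoters) and TTCNNNGAA (8.30%), had no match in this window. A match is a description of letters and not a measured binding site.

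A copy of Ass1 drew more counts than the gene. Gm5424, a processed pseudogene on chromosome 10 from 62071123 to 62072362, aligns with all 1239 coding bases of Ass1 with 6 mismatches, and the longest identical stretch is 398 bases. The 60 coding bases of Ass1 from base 370 to 429 and their match in Gm5424 (GENCODE M21 transcripts, GRCm38) are shown because they hold the densest mismatches, 2 in capitals, by which a read can be told apart.
Ass1: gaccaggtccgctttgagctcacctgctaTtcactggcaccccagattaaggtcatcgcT
Gm5424: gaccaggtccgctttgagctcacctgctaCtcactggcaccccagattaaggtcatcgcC
Gm5424 was given 338 and 313 counts without EGCG and 250 and 293 with it, more than Ass1 itself in each library (172 and 145, then 116 and 118). Thus 28.7% to 33.7% of the reads of both genes were counted on Ass1. The log2 fold change of Gm5424 was -0.26 (standard error 0.12), in the direction of Ass1, and that of their sum was -0.31, with an adjusted p of 0.277 by edgeR and an unadjusted p of 0.0128. Whether the pseudogene is itself transcribed was not tested.

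**Figure D4:**
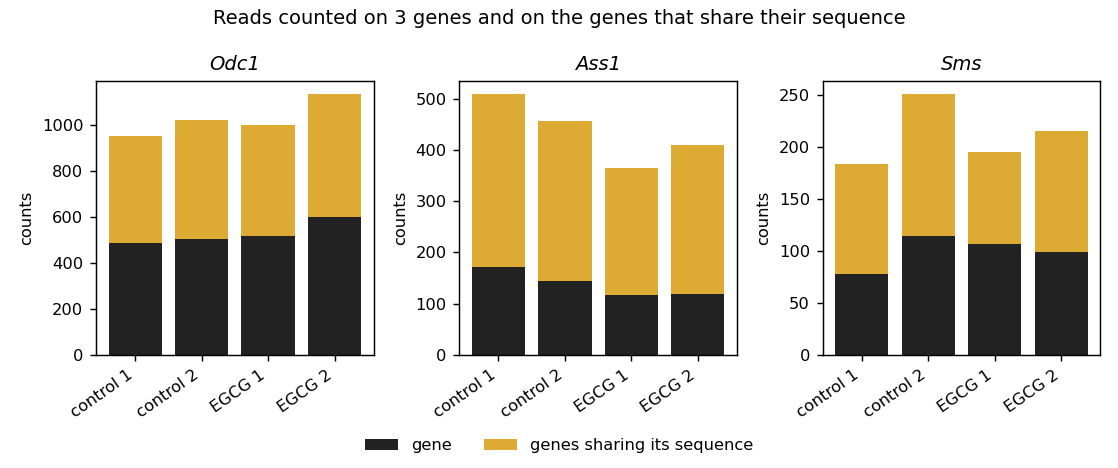
Counts (y axis, from 0) on Odc1, Ass1 and Sms (black) and on other genes that hold at least 5% of their 31-base words (all runs of 31 bases in their transcripts; yellow), by library (x axis). Of these sums, 28.7% to 33.7% were counted on Ass1, 49.5% to 52.9% on Odc1 and 42.4% to 54.9% on Sms.

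Odc1, Srm and Sms encode ornithine decarboxylase, spermidine synthase and spermine synthase, the successive synthetic enzymes from ornithine to spermine. Odc1 (ENSMUSG00000011179; chromosome 12, 17544794 to 17551505, plus strand) was at 26.7 and 28.3 CPM in control replicates 1 and 2, beside 28.6 and 33.6 CPM with EGCG. The groups were separate, but EGCG replicate 1 was next to control replicate 2 and EGCG replicate 2 stood above the rest. The log2 fold change was 0.18 (standard error 0.11, 95% interval -0.05 to 0.40), with an adjusted p of 0.544 by edgeR, and the log2 fold change was 0.06 without EGCG replicate 2 and 0.29 without EGCG replicate 1. A total of 11 other genes share at least 5% of the 31-base words of Odc1, most of them processed pseudogenes, and Gm7993 on chromosome 5 (97.7% identical over 1366 aligned coding bases) had 306 to 375 counts. Summed with these genes, Odc1 had a log2 fold change of 0.12.

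Srm (ENSMUSG00000006442; chromosome 4, 148591503 to 148594993, plus strand) was at 9.91 and 10.9 CPM without EGCG and 10.4 and 10.0 CPM with it. The groups overlapped, and the log2 fold change was -0.02 (standard error 0.14, 95% interval -0.33 to 0.28). Sms (ENSMUSG00000071708; chromosome X, 157443855 to 157492287, minus strand) was at 4.27 and 6.38 CPM in control replicates 1 and 2 and at 5.90 and 5.54 CPM after EGCG. Here control replicate 1 was lowest and control replicate 2 highest, so the log2 fold change of 0.11 (standard error 0.21, 95% interval -0.35 to 0.56) had no stable direction, and it was -0.15 without control replicate 1. All 1101 coding bases of Sms recur without a mismatch in the processed pseudogene Sms-ps (chromosome X from 62775585 to 62776685), which had 105 and 136 counts in control and 84 and 116 in EGCG libraries. Summed with Sms-ps and 2 lesser copies, the log2 fold change of Sms was -0.08, so its sign depends on where these reads are placed. The mean log2 ratio of Odc1 over Srm was 0.19 higher with EGCG, but 0.049 higher without EGCG replicate 2 and 0.34 without EGCG replicate 1. By library, the log2 ratio of Odc1 over Srm was 1.42 and 1.37 without EGCG and 1.45 and 1.73 with it (exact permutation p of 0.333, the smallest possible). That of Srm over Sms overlapped between the groups (exact permutation p of 1.0).

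**Figure D5:**
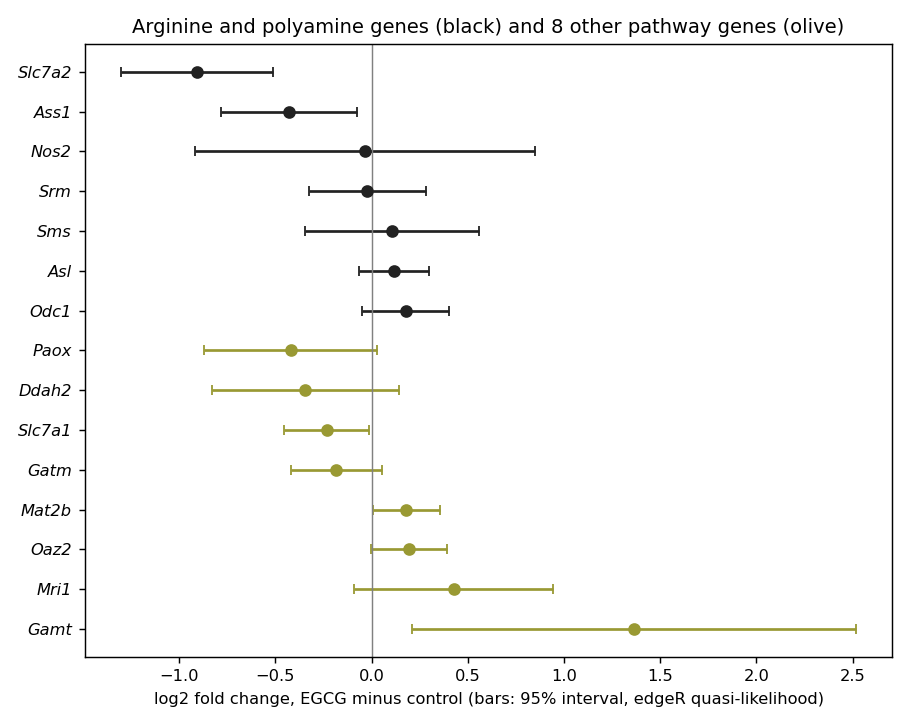
Log2 fold change, EGCG minus control (x axis), with 95% intervals from edgeR's quasi-likelihood fit, for the 7 genes (black) and 8 other pathway genes (olive). The fit shares variance between genes, so the intervals do not rest on a gene's own libraries alone. The intervals of Slc7a2 (-1.30 to -0.51) and Ass1 (-0.78 to -0.08) do not reach 0, although 0 of the 7 genes passed after adjustment.

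Levels were compared between genes as counts per exonic base, rescaled to the same total in each library, as TPM are. Over the 4 libraries Asl was highest, at 23.2 on average (21.8 to 24.9), and its range overlapped that of Odc1 (18.7 to 22.8, mean 20.4), followed by Srm (15.3). Ass1 (7.57) and Slc7a2 (6.18) overlapped, while Sms (2.17) and Nos2 (0.541, range 0.441 to 0.689) were lowest and separate from their neighbours. With the longest transcript as length the order of the 7 genes was the same, although Asl moved from 23.2 to 38.3. On this scale the control and EGCG groups of Odc1 and of Asl overlapped, and those of Srm (16.0 and 16.0, then 14.5 and 14.5) were separate, so whether these 3 genes had separate groups depends on the scaling. The levels of Ass1, Odc1 and Sms leave out the reads counted on their copies. Only 28.7% to 33.7% of the summed reads were counted on Ass1 and 49.5% to 52.9% on Odc1. The order given, with Asl highest, is therefore that without these reads, and an order with them was not computed. Of the 7 genes, the message for inducible nitric oxide synthase was thus the scarcest.

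The wider pathway was covered by 54 further gene symbols, of which 43 were tested. After adjustment by edgeR, 0 were lower and 0 higher with EGCG, and at an unadjusted p under 0.05 these counts were 1 and 2, beside 7.02% and 5.22% of all tested genes. By DESeq2, 0 passed after adjustment in either direction, but some genes, such as Gamt, Paox, Ddah2 and Mri1, were given no adjusted p. The median log2 fold change of the list was 0.05, and 23 of the 43 genes (53.5%) had groups that did not overlap, beside 42.7% of all tested genes. The lowest value in transport was that of Slc7a1, the gene of the constitutive arginine transporter CAT1, at 25.4 and 25.7 CPM in control and 21.0 and 22.4 CPM in EGCG libraries (log2 fold change -0.23, standard error 0.10, adjusted p of 0.386 by edgeR, and -0.099 with the length correction). The urea cycle genes Otc, Cps1 and Nags had at most 2 counts in any library and were not tested, as were Nos1 and the agmatinase gene Agmat.

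Of the genes around nitric oxide and creatine synthesis, Gatm, which starts creatine synthesis from arginine, had a log2 fold change of -0.18 (standard error 0.11), which became -0.050 or -0.30 when control replicate 1 or control replicate 2 was left out. Gamt, which completes that synthesis, had 1.36 (standard error 0.54), but from only 5 and 5 counts in control and 14 and 12 in EGCG libraries. Ddah2, which clears an inhibitor of nitric oxide synthases, was at -0.35 (standard error 0.23). All 5 tested genes of nitric oxide and tetrahydrobiopterin supply had an adjusted p of 0.602 or more by edgeR, and the 6 tested genes between ornithine, proline and glutamate had 0.600 or more.

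In polyamine control, the antizyme and antizyme inhibitor genes Oaz1, Oaz2 and Azin1, which set the stability of ornithine decarboxylase, had separate groups with EGCG above control (beside 21.5% of all tested genes) and 0 of 3 passed. The groups overlapped for Azin2, another antizyme inhibitor gene (log2 fold change -0.02). Oaz2 was at 79.96 and 97.7 CPM in control and 101.9 and 101.4 CPM in EGCG libraries (log2 fold change 0.20, standard error 0.09, adjusted p of 0.414 by edgeR), but its log2 fold change was 0.06 without control replicate 1. Leaving out control replicate 2 gave 0.35, which passed (adjusted p of 0.0232 by edgeR), in a fit that called 1.35% of all tested genes higher, beside 0.0136% with all libraries. Paox, a polyamine oxidase gene, had -0.42 (standard error 0.21). Mat2b and Mri1, of methionine metabolism and salvage, had 0.18 (0.08) and 0.43 (0.24), and Mat2b had 0.10 without control replicate 1. These genes thus lay on both sides of 0, and the smallest adjusted p in the wider list was 0.338 by edgeR, for Gamt.

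Of 18 regulators of arginine and polyamine genes in myeloid cells, 0 passed after adjustment by edgeR, while 2 lower and 2 higher genes had an unadjusted p under 0.05, beside 7.02% and 5.22% of all tested genes. By DESeq2, 1 was lower and 0 higher after adjustment, beside 0.341% and 0.0954% of all tested genes. Csf2rb, the common receptor chain of GM-CSF, IL-3 and IL-5, had the smallest p: it was at 812.1 and 787.8 CPM in control and 624.3 and 660.4 CPM in EGCG libraries. This gave -0.32 on the log2 scale (standard error 0.08) and an adjusted p of 0.121 by edgeR and 0.0177 by DESeq2, and it passed by edgeR without control replicate 2 (0.0188), where 2.33% of all tested genes were called lower, beside 0.136% with all libraries. Reads may be split with its paralog Csf2rb2, whose log2 fold change was -0.25. Klf4, a macrophage factor, was at 33.6 and 29.3 CPM in control and 21.2 and 28.3 CPM in EGCG libraries (log2 fold change -0.34, standard error 0.13). It passed without EGCG replicate 2 (-0.57) and without control replicate 2 (-0.44), fits that called 1.09% and 2.33% of all tested genes lower, and was -0.15 without EGCG replicate 1. Cebpb, a transcription factor needed by MDSCs, had a log2 fold change of 0.22 (standard error 0.08) and 0.10 without EGCG replicate 2. Il13ra1, a chain of the IL-13 receptor, had 0.23 (0.09). For Nfkb1 (-0.09), Spi1 (0.12) and Max (0.12, or 0.08 without control replicate 1) the 95% intervals crossed 0, and Nfkb1 ran from -0.14 to -0.02 with a library left out.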

How the data were processed

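Per the labels and the study's methods, the authors sequenced RNA of 4 MDSC libraries (bcl2fastq 1.8.4, FastQC), aligned the reads to GRCm38 with STAR 2.6.0c and deposited whole-number counts per Ensembl gene made by featureCounts 1.6.2 without strand. No column of another sample and no row without a gene was present. From the counts, genes with a minimum count of 10 (filterByExpr; 14682 of 53465) were scaled by TMM and tested with edgeR 4.0.16 (quasi-likelihood, legacy fit, R 4.3.3), EGCG against control, with Benjamini-Hochberg adjustment at 0.05. The test was checked on simulated counts with known fold changes, drawn with the same spread for genes of the same level. It had to recover most of the largest changes and the median size of a smaller one, while no limit was set on false calls. DESeq2 1.42.0, other filters and scalings, a length correction, a replicate block and leaving out each library were alternatives. Summing genes that share sequence was added after the data were seen. Ratios used a prior count of 2. Gene models, lengths and shared 31-base words came from GENCODE M21. The genes and lists were chosen with earlier results of these data known. Beside the 7 genes, those named were up to 4 lower and up to 4 higher genes of smallest p in the wider pathway list and in the regulators and genes of those lists past the threshold. Some listed genes are not reported here and are left out of the counts of their lists. Others (Gm5424, Gm7993, Sms-ps, Csf2rb2, Oaz1, Azin1, Azin2, Nos3, Slc7a3 and the markers in the text) were named for shared reads or for their list, after their values were seen. Intervals cover counting error only where called Poisson.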

Additional observations from a re-analysis of the deposited data

How the results depend on the processing

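Of 453 values under alternatives, 418 kept their side of the threshold or moved by less than their spread, 10 passed it only under the alternative, 17 moved and 8 reversed. A gene without an adjusted p by DESeq2 was counted as not passing. The number of the 7 genes called lower was 0 as reported but 1 (Slc7a2) without TMM scaling (library size only), and between 0 and 1 when 1 library was left out. Their median log2 fold change then ran from -0.15 to 0.087, and it was 0.037 with a minimum count of 50, which turns its sign. In the wider pathway list, genes called higher ran from 0 to 1 and the median from -0.0050 to 0.067 with a library left out. Regulators called lower were 1 with library size only, 1 with DESeq2, and 0 to 2 with a library left out (2 without control replicate 2). Leaving out 1 library gave log2 fold changes on both sides of 0 for Nos2 (-0.36 to 0.38), Srm (-0.083 to 0.046) and Sms (-0.15 to 0.42), and for the log2 ratio of Srm over Sms (-0.37 to 0.069). Sms was at -0.081 when summed with genes that share its sequence, which moves about as many reads as Sms itself holds, and Nfkb1 was at 0.055 with the length correction. The cause of the other changes was not tested. Over all genes, 20 were called lower and 2 higher as reported. These counts were 135 and 16 with library size only, 0 and 0 with no filter, 50 and 14 with DESeq2, 49 and 14 with edgeR's robust fit, 3 and 2 with the length correction, and 9 and 1 with a minimum count of 50, which left out Nos2. They were 106 and 12 without control replicate 1, 342 and 198 without control replicate 2, 73 and 20 without EGCG replicate 1, and 160 and 36 without EGCG replicate 2, so calls of single genes in these fits stand beside many more calls over all genes. The sources used do not say whether libraries of the same replicate number share a mouse or a sort. The correlation of their deviations over all tested genes was 0.0336, a value that counting error also enters and that cannot decide this. With a replicate block, Slc7a2 was at -0.87 (adjusted p 0.0662 by edgeR), 0 of the 7 genes were called, and 24 genes were called lower and 6 higher in all. Nos2, Gamt, Nos3 and Slc7a3 had few counts, and the part of depth in their values was not tested.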

Other observations

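Genes of alternatively activated macrophages were read as well. Of 5 such genes, 4 had lower values with EGCG and 1 had a higher value, and 0 passed after adjustment by edgeR. Mrc1, the mannose receptor gene, had a log2 fold change of -0.63 (standard error 0.14, adjusted p of 0.0870 by edgeR), and Retnla, which encodes a secreted protein of the resistin family, -0.76 (0.22, adjusted p of 0.196). Ccl24, a chemokine gene, had -0.31 (0.16). Mgl2, a lectin gene, and Chil3, also abundant in neutrophil precursors, were at -0.08 (0.22) and 0.02 (0.09). The summed level was 417.2 and 418.1 CPM in control replicates 1 and 2 and 407.3 and 379.2 CPM with EGCG. Most of this sum was Chil3, at 287 and 321 CPM in control and 330 and 284 CPM in EGCG libraries. Mrc1 is also among the macrophage markers above, so the lists are not separate.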
